A study of Drosophila melanogaster with 8 samples.

Results

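Chromosome 4 is the smallest chromosome of the fruit fly Drosophila melanogaster, and its protein-coding genes were followed here in muscle and in adult whole flies. All protein-coding entries that the muscle table places on chromosome 4 were taken, 80 in all. The genes bt, ND-49 and RpS3A were left out, which left 77 of 13968 protein-coding entries. The same 77 genes were found among the 13966 protein-coding entries of the whole-fly table, 72 under the same name and 5 under a synonym with matching coordinates. Among them were Arf102F, bip2, Thd1 and CG32850, listed in whole flies as Arf4, Taf3, Tdg and Rnf11.

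The study profiled flies labelled mutant, a knockout of the gene anw according to the series' design, and flies labelled wildtype. It comprised 8 RNA libraries in 4 groups of 2, namely mutant muscle, wildtype muscle, mutant whole flies and wildtype whole flies. All stocks were kept at 25 °C, and each library was built from 1.3 µg of total RNA. The sources used here give no allele, strain, sex or age for any group, and they do not say how muscle was dissected. They also do not say whether the repeats came from separate flies, so a p-value measures only the spread between these libraries, which may be technical. Neither table pairs the symbol anw with a gene, so the genotype labels were not checked against RNA of the deleted gene.

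Chromosome 4 carries genes in an unusual setting. Most of it is packed with marks of heterochromatin such as methylated histone H3 lysine and the protein HP1, and transposable elements lie between and inside its genes, yet most of those genes are active. The protein Pof coats the chromosome and raises the output of its genes, and the histone methyltransferase Eggless is needed for that binding. Several of its genes are classical developmental regulators, among them cubitus interruptus of Hedgehog signalling, pangolin of Wingless signalling and the Pax6 genes eyeless and twin of eyeless.

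The gene models showed that setting. In release 6 of the fly genome the 77 genes run from base 879 to base 1271759 of chromosome 4, from JYalpha to Cadps. Their median span was 10426 bases, against 1986 to 2557 bases for protein-coding genes of the other 5 chromosome arms. Introns took up a median of 51.2% of the span, against 11.7% to 16.2% on the other arms. The summed exon length, by which the authors scaled each gene, had a median of 4336 bases on chromosome 4 and between 1662 and 1998 bases elsewhere. The reference annotation lists a median of 3 transcripts per gene, up to 12 for CaMKII, and 24.7% of the 77 genes have 5 or more, against 7.44% to 11.4% on the other arms. The deposited FPKM values sum all transcripts of a gene and do not separate its splice forms.

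Transposable element entries numbered 565 on chromosome 4, and 365 of them lay inside the span of 1 of the 77 genes. At least 1 such element was found in 64 genes, with a median of 3 and a maximum of 25 in Cadps, a gene of dense-core vesicle release. The largest span belonged to pan, the Wnt pathway transcription factor, with 44945 bases and 13 elements. Another protein-coding gene on the opposite strand overlapped 17 of the 77 genes. Because strand handling is not given in the sources used here, reads of such neighbours, for example ATPsynbeta and CG11076, or zfh2 and Thd1, cannot be told apart with certainty.

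Between 18580751 and 22210197 reads were assigned to genes per library. Levels are given as FPKM, reads per kilobase of exon length scaled by library, so levels of different genes can be compared per length within a table. Sarcomere markers were high in the muscle libraries, with summed levels of 12316 and 11748 FPKM in the mutants against 10192 and 14155 FPKM in the wildtypes. Ovary and yolk markers were present there as well, at 8200.6 and 19338 FPKM in mutants against 26554 and 14242 FPKM in wildtypes, and so were fat body and gut markers, at 10122 and 8097.6 FPKM against 11000 and 14620 FPKM. Testis and male markers differed widely between the mutant muscle libraries, at 210.06 and 21.41 FPKM, against 79.95 and 33.59 FPKM in wildtypes. Of these, 2 of the 7 tested were positive. Of all marker genes found in the tables, 0 were without reads in every library. In such bulk samples fewer cells of a type and less RNA per cell cannot be told apart.

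Most chromosome 4 genes were expressed, and their median level was above those of the other chromosome arms. The filter used for all tests asked for 1 FPKM or more in 2 or more of a tissue's 4 libraries, and it was passed by 69 of 77 genes in muscle (89.6%) and by 73 of 77 in whole flies (94.8%). Among all protein-coding entries the shares were 67.8% in muscle and 78.6% in whole flies. The median of the 77 mean levels in muscle was 12.99 FPKM in mutants and 10.8 FPKM in wildtypes, while the medians of the other arms in wildtype muscle ran from 2.53 to 3.26 FPKM. In whole flies the median was 11.9 FPKM in mutants and 11.9 FPKM in wildtypes, against 7.30 to 8.29 FPKM for the other arms in wildtypes. These medians include genes without expression. Among genes that passed the filter, the wildtype muscle median was 11.7 FPKM on chromosome 4 and 6.52 to 7.60 FPKM on the other arms. In wildtype whole flies the excess was narrow, at 12.5 FPKM against 11.2 to 12.4 FPKM. Mean levels of 100 FPKM or more were reached in wildtype muscle by 4 genes and in wildtype whole flies by 2.

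ATPsynbeta, which encodes the beta subunit of the mitochondrial ATP synthase, was the most abundant by far. In muscle its levels were 2741 and 2329 FPKM in the mutants and 2699 and 2776 FPKM in the wildtypes. It stood at 1961 and 2014 FPKM in mutant whole flies and at 1488 and 1307 FPKM in wildtype whole flies. It stood at percentile 99.8 of protein-coding genes in wildtype muscle and 99.6 in wildtype whole flies. The lipoprotein gene apolpp, whose product carries lipids in the blood and is made in the fat body, came next in wildtypes. Its muscle levels were 131 and 148 FPKM in mutants and 245 and 194 FPKM in wildtypes, and its whole-fly levels 121 and 217 FPKM in mutants and 173 and 124 FPKM in wildtypes. ATPsynbeta alone gave 46.4% and 37.7% of the reads of the 77 genes in mutant muscle and 44.1% and 45.7% in wildtype muscle, and apolpp gave 10.9% and 11.8% in mutants and 19.7% and 15.7% in wildtypes.

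CG33521 and CG1674, known by their identifiers, completed the group of 4 at 100 FPKM or more in muscle. CG33521 had 134 and 191 FPKM in mutants and 127 and 131 FPKM in wildtypes, and CG1674 had 111 and 150 FPKM in mutants and 107 and 126 FPKM in wildtypes. In whole flies CG33521 read 27.0 and 35.4 FPKM in mutants and 26.9 and 19.3 FPKM in wildtypes. CG1674 read 30.3 and 31.0 FPKM in mutants and 23.1 and 20.6 FPKM in wildtypes there. Whole flies were scaled separately, so these levels were not tested against those of muscle. The kinase genes CaMKI and CaMKII, which respond to calcium and calmodulin, followed in muscle. CaMKI read 57.8 and 76.4 FPKM in mutants and 60.8 and 59.2 FPKM in wildtypes, and CaMKII 54.3 and 70.4 FPKM in mutants and 50.1 and 52.4 FPKM in wildtypes. For both kinases the value of mutant 2 was the high one in muscle, and mutant 1 lay close to the wildtypes.

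**Figure D1:**
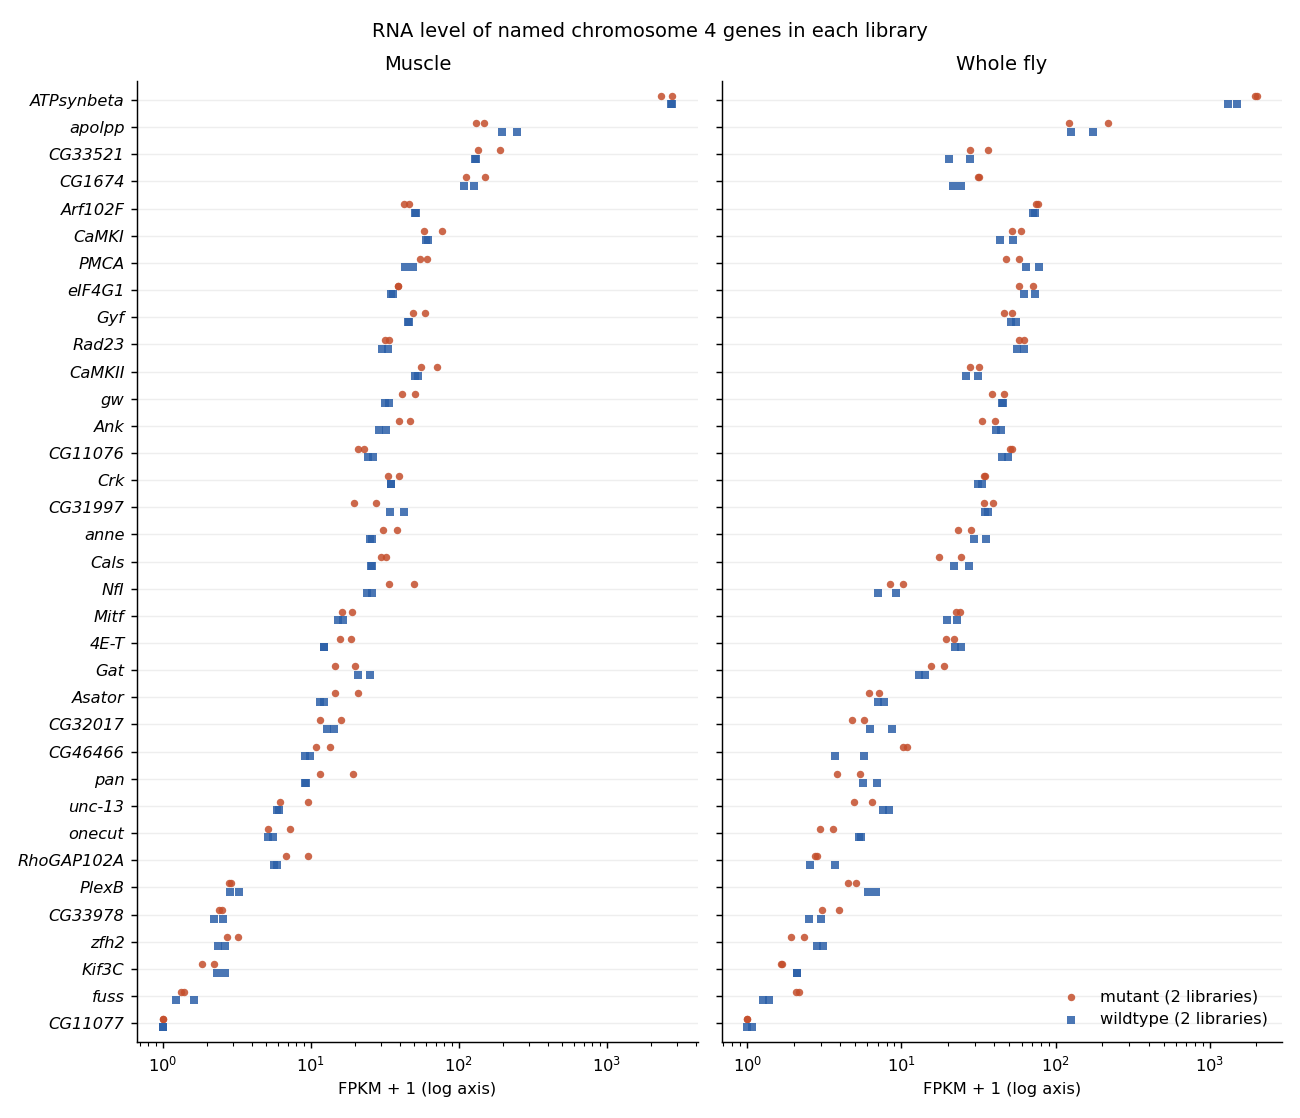
RNA level of the 35 named chromosome 4 genes in each library, as FPKM + 1 on a log axis, with muscle on the left and whole flies on the right. Red circles are the 2 mutant libraries and blue squares the 2 wildtype libraries of a tissue. Genes are ordered by mean level over all 8 libraries, from ATPsynbeta, at 2699 and 2776 FPKM in wildtype muscle, down to CG11077, with 0 reads in muscle.

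At the other end stood developmental transcription factors. The genes ey, sv, fd102C and fuss, together with JYalpha, Ekar, CG32006 and CG11077, did not reach the filter in muscle, and sv, fd102C, CG32006 and CG11077 did not in whole flies. CG11077 had 0 reads in all 4 muscle libraries, a result that allows up to 3 reads in each as far as counting error goes, and 1 read in all in whole flies, in wildtype 2. The Pax6 gene ey read 0.717 and 0.795 FPKM in mutant muscle and 0.503 and 0.576 FPKM in wildtype muscle, and its sister toy, which reached the filter through the mutants only, 1.10 and 1.72 FPKM in mutants and 0.776 and 0.844 FPKM in wildtypes. The Pax gene sv, fd102C of the forkhead family and the glutamate receptor gene Ekar were all under 1 FPKM in each muscle library.

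Relative to other genes of the same table, chromosome 4 genes ranked higher in muscle than in whole flies. In wildtype muscle the median gene stood at percentile 74.5 of all protein-coding genes and 62 of 77 lay above percentile 50. In wildtype whole flies the median percentile was 61.3 and 46 genes lay above percentile 50. A higher percentile in muscle was seen for 64 genes. The gap was 20 points or more in favour of muscle for 16 genes and in favour of whole flies for 0. The widest was that of NfI, a transcription factor of the nuclear factor I family, at percentile 86.6 in wildtype muscle and 48.2 in wildtype whole flies. It was followed by CG46466 (69.5 and 35.9), CG32017 (77.1 and 45.9), the vesicle protein gene Syt7 (68.7 and 38.8), the GTPase activator gene RhoGAP102A (58.3 and 29.1), the tau-tubulin kinase gene Asator (74.9 and 45.9) and dpr7 (70.6 and 41.6). The tables rest on different annotations and were scaled separately, so these are ranks set side by side and no level was tested across them. How many of all protein-coding genes rank higher in muscle is not given here, so the counts of 64 and 16 stand without that share.

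**Figure D2:**
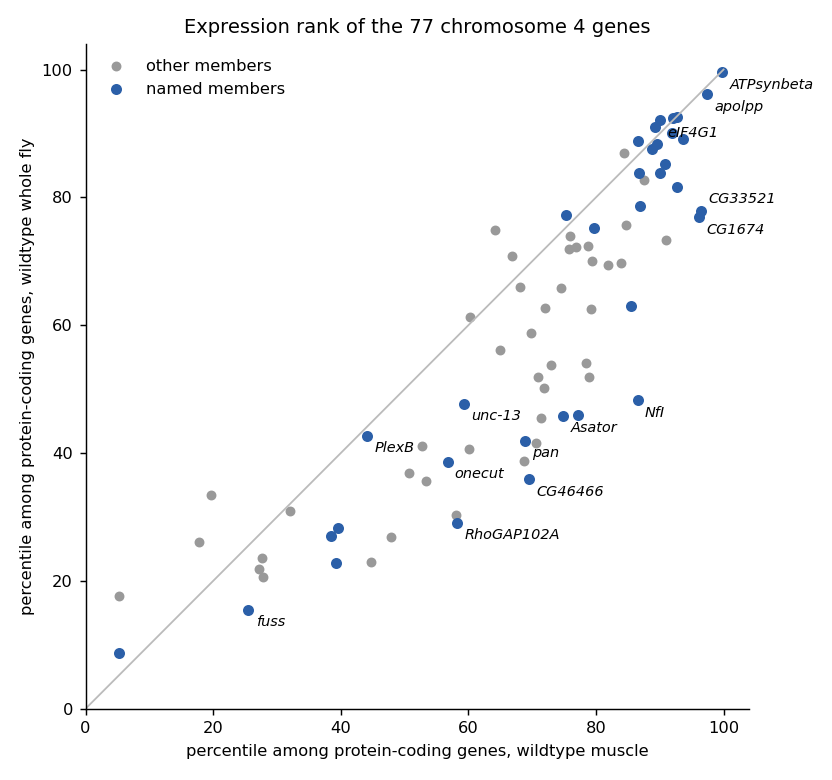
Expression rank of the 77 chromosome 4 genes as percentile among protein-coding genes, in wildtype muscle on the horizontal axis and wildtype whole flies on the vertical axis. Points under the diagonal rank higher in muscle, as 64 of 77 do, and NfI lies farthest from it at 86.6 and 48.2.

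In mutant muscle most chromosome 4 genes read higher than in wildtype muscle, by small amounts, and no single gene passed the test. Of the 69 genes tested by limma, 57 (82.6%) had a positive difference of mutant minus wildtype, against 51.8% of all entries tested. The median difference was 0.24 after a log2 transform of FPKM + 1, a scale that understates changes of weakly expressed genes, and the median of all entries was 0.02. On the other chromosome arms the medians lay between -0.01 and 0.02. Both mutants were above both wildtypes for 42 genes (60.9%) and below them for 6 (8.7%), against 23.6% and 25.3% of all entries. At an adjusted p under 0.05 limma called 0 of the 69 genes, where 0% of the 10079 entries were called. An unadjusted p under 0.05 was reached by 8 of them (11.6%), against 14% of all entries. The smallest adjusted p among the genes was 0.31.

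The size of this shift differed between the mutant libraries and moved with gene length. Set against the wildtype mean, the median of the 69 genes was 0.11 in mutant 1 and 0.36 in mutant 2, and without mutant 2 the median difference was 0.11. Other protein-coding genes of at least 4000 bases had medians of 0.12 in mutant 1 and 0.26 in mutant 2, and those under 2000 bases -0.10 and -0.25. Within length classes the median difference was 0.28 for chromosome 4 genes and 0.23 for other coding genes from 6000 bases upward, and 0.25 against 0.15 from 4000 to 6000 bases. Between 2000 and 4000 bases it was 0.23 against 0.03, over 19 chromosome 4 genes. It was 0.13 against -0.09 from 1000 to 2000 bases, over 8 of them, and -0.46 against -0.16 under 1000 bases, over 2. With the length trend removed from each library the median was 0.10, with 49 of 69 positive, and the other arms ran from -0.01 to 0.04. Neuron markers had a like shift in muscle, 12 of 14 positive with a median of 0.24 and summed levels of 203.62 and 263.75 FPKM in mutants against 189.08 and 205.11 FPKM in wildtypes, and their part in the result was not tested. Eye markers, of which 1 of 8 reached the filter in muscle with a difference of 1.42, summed to 12.66 and 20.98 FPKM in mutants against 5.08 and 6.09 FPKM in wildtypes, and their part was not tested either. Glia markers had 2 of 6 positive in muscle with a median of -0.05, and muscle markers 10 of 12 with a median of 0.16.

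**Figure D3:**
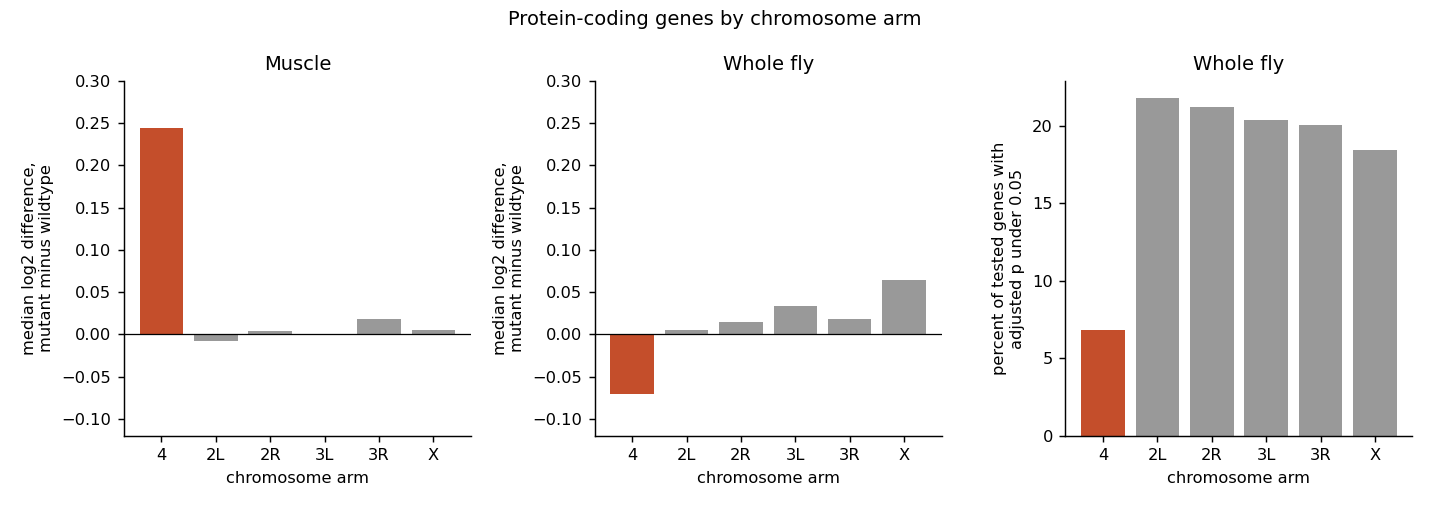
Protein-coding genes by chromosome arm. The left and middle panels give the median log2 difference, mutant minus wildtype, in muscle and whole flies, and the right panel the percent of tested genes with a limma adjusted p under 0.05 in whole flies. Chromosome 4, in red, stands at 0.24 in muscle and -0.07 in whole flies, with 6.85% called against 18.5% to 21.8% on the other arms.

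Among transcription and chromatin genes 12 of the 13 tested were positive in muscle, with a median of 0.25, and both mutants were above both wildtypes for 10. For this role and those below, the share with both mutants above was 60.9% over all 69 chromosome 4 genes tested and 23.6% over all entries. NfI had 33.0 and 48.6 FPKM in the mutants and 23.1 and 25.0 FPKM in the wildtypes. The libraries did not overlap and mutant 2 was the highest of them. The difference of 0.71 ± 0.22 (log2, SE, n = 2 per group) did not pass, with a limma adjusted p of 0.33. The gene pan, whose product binds DNA at targets of Wingless, read 10.5 and 18.2 FPKM in mutants and 8.29 and 8.16 FPKM in wildtypes, a difference of 0.69 ± 0.28 (limma adjusted p = 0.396). Here too mutant 2 stood far above the other 3 libraries. The Polycomb recruiter gene pho had 15.5 and 17.4 FPKM in mutants and 13.1 and 12.04 FPKM in wildtypes, and the Hedgehog effector gene ci 6.36 and 7.44 FPKM in mutants and 5.22 and 5.28 FPKM in wildtypes. Mitf, a regulator of lysosome genes, showed overlapping groups at 15.4 and 18.1 FPKM in mutants and 15.6 and 14.3 FPKM in wildtypes. The exception in sign was Sox102F, with 6.90 and 10.9 FPKM in mutants and 9.05 and 9.31 FPKM in wildtypes.

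Signalling genes were likewise mostly positive in muscle, with 13 of 14 positive, a median of 0.21 and both mutants above both wildtypes for 10. Asator had 13.7 and 19.8 FPKM in mutants and 10.6 and 11.4 FPKM in wildtypes, a difference of 0.55 ± 0.21 (limma adjusted p = 0.378). RhoGAP102A read 5.83 and 8.62 FPKM in mutants and 4.67 and 4.91 FPKM in wildtypes (0.49 ± 0.21, limma adjusted p = 0.416). Both genes were above the wildtypes in each mutant, with the larger excess in mutant 2. The ligand gene Ephrin was at 8.98 and 10.3 FPKM in mutants and 6.67 and 6.83 FPKM in wildtypes, while that of its receptor, Eph, was at 11.7 and 12.4 FPKM in mutants and 10.7 and 10.9 FPKM in wildtypes. Among ligands of the TGF-beta family, mav had nearly equal values in all libraries, 8.95 and 8.99 FPKM in mutants and 8.86 and 8.31 FPKM in wildtypes, and myo overlapped at 20.03 and 25.2 FPKM in mutants and 18.8 and 20.6 FPKM in wildtypes. The adaptor gene Crk overlapped as well, with 32.3 and 38.4 FPKM in mutants and 33.8 and 33.7 FPKM in wildtypes. The semaphorin receptor gene PlexB was the only negative member of the group, at 1.83 and 1.91 FPKM in mutants and 1.87 and 2.27 FPKM in wildtypes.

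Of the synapse and excitable membrane genes 8 of 9 were positive in muscle, with a median of 0.21. PMCA, the calcium pump of the plasma membrane, had 60.1 and 53.6 FPKM in mutants and 42.4 and 47.9 FPKM in wildtypes (0.33 ± 0.13, limma adjusted p = 0.388), with no overlap. Cals, a calsyntenin of the postsynaptic membrane, read 29.1 and 31.5 FPKM in mutants and 24.6 and 25.0 FPKM in wildtypes. For unc-13, needed to prime synaptic vesicles, mutant 2 stood apart with 8.64 FPKM, against 5.22 FPKM in mutant 1 and 5.09 and 4.95 FPKM in the wildtypes. The GABA transporter gene Gat was the member with a negative value, at 18.8 and 13.5 FPKM in mutants and 19.8 and 24.2 FPKM in wildtypes, a difference of -0.44 ± 0.21 (limma adjusted p = 0.456).

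All 7 genes of RNA control, translation and DNA repair had positive differences in muscle, with a median of 0.32, and 6 had both mutants above both wildtypes. The gene gw, whose product GW182 silences targets of microRNAs, had 40.7 and 49.5 FPKM in mutants and 30.9 and 32.6 FPKM in wildtypes. Its difference was 0.49 ± 0.14 with a limma adjusted p of 0.321. 4E-T, which binds the cap-binding factor eIF4E, read 14.7 and 17.6 FPKM in mutants and 11.3 and 11.4 FPKM in wildtypes (0.47 ± 0.13, limma adjusted p = 0.319). For neither gene did the groups overlap. The GYF domain gene Gyf was at 48.3 and 58.5 FPKM in mutants and 44.2 and 45.2 FPKM in wildtypes, and the initiation factor gene eIF4G1 at 38.1 and 38.1 FPKM in mutants and 33.7 and 34.8 FPKM in wildtypes. Rad23, of nucleotide excision repair and proteasome delivery, overlapped between the genotypes, with 32.6 and 30.9 FPKM in mutants and 29.3 and 32.6 FPKM in wildtypes.

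Metabolism, transport and cytoskeleton genes were split, with 4 of 8 positive in muscle and a median of -0.03. Ankyrin, encoded by Ank and linking membrane proteins to spectrin, was among the higher ones at 38.4 and 45.6 FPKM in mutants and 27.9 and 31.3 FPKM in wildtypes (0.49 ± 0.14, limma adjusted p = 0.321). For apolpp, both mutants lay below both wildtypes, and the difference of -0.64 ± 0.17 had the limma adjusted p of 0.31 named above as the smallest. The summed fat body and gut markers were also lower in mutant muscle, with 0 of 8 positive, and their part in the value of apolpp was not tested. The difference of ATPsynbeta was -0.12 ± 0.15 (limma adjusted p = 0.793), with mutant 2 below the other 3 libraries. The vesicle traffic GTPase gene Arf102F read 45.1 and 41.8 FPKM in mutants and 49.8 and 50.4 FPKM in wildtypes, a difference of -0.20 ± 0.11 (limma adjusted p = 0.476). Of the genes on no role list, 13 of 18 were positive with a median of 0.20. The short gene CG31997 had the lowest value of all, -0.71 ± 0.23 (limma adjusted p = 0.345), with 26.8 and 18.8 FPKM in mutants and 33.3 and 41.9 FPKM in wildtypes. CG11076, which overlaps ATPsynbeta, stood at 20.05 and 21.8 FPKM in mutants and 25.3 and 23.3 FPKM in wildtypes. The kinesin gene Kif3C had 0.835 and 1.23 FPKM in mutants and 1.32 and 1.65 FPKM in wildtypes, and both genes were lower in each mutant without passing.

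In whole flies few chromosome 4 genes were called, and most of their differences were small. By limma 4 genes rose and 1 fell, 5 of 73 tested (6.85%), where 20.8% of all 11419 entries were called, 9.94% higher and 10.8% lower. An unadjusted p under 0.05 was reached by 15 (20.5%), against 36.4% of all entries. On the other arms 18.5% to 21.8% of tested genes were called. The genes that rose were CG46466, CG1674, ATPsynbeta and fuss, and the gene that fell was onecut. Since fuss reached the filter through the mutants only, and Kif3C and ey through the wildtypes only, these 3 had to differ, and without them 4 of 70 genes were called, 3 higher and 1 lower. The count rests on single libraries and on the fit. It was 11 (15.3%, 4 higher and 7 lower) without mutant 2, against 28.7% of all entries, and 3 (4.17%, all higher) without mutant 1, against 15.2%. Without wildtype 1 it was 3 (4.23%, all higher) and without wildtype 2 it was 3 (4.23%, 1 higher and 2 lower), against 12.7% and 13.6% of all entries. A limma-voom fit to reads recovered from the FPKM, added after the data were seen, called 10 (13.7%, 4 higher and 6 lower), against 24.6% of all entries. The median difference of the 73 genes was -0.07, against 0.02 over all entries, and 27 (37%) were positive, against 52.4%. Its sign rests on single libraries, since it was 0.03 without mutant 1 and 0.06 without wildtype 1, and -0.18 without mutant 2 and -0.17 without wildtype 2. Both mutants lay above both wildtypes for 13 genes (17.8%) and below them for 17 (23.3%), against 34.5% and 31.5% of all entries. The median size of a difference regardless of sign was 0.16 for chromosome 4 genes and 0.24 for all entries. Between repeats, the median size of a difference was 0.23 in mutants and 0.20 in wildtypes for chromosome 4 genes. For all entries it was 0.16 and 0.12, and the part of this spread in the number of calls was not tested.

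CG46466, known by its identifier, had 9.23 and 9.92 FPKM in mutant whole flies and 4.68 and 2.72 FPKM in wildtype whole flies. The groups were far apart, and the mutants were close to each other. The rise of 1.20 ± 0.21 (log2, SE, n = 2 per group) had a limma adjusted p of 0.00706 and passed with any single library left out, at 0.89 to 1.51. In muscle the gene read 9.87 and 12.5 FPKM in mutants and 8.85 and 8.12 FPKM in wildtypes, a difference of 0.35 ± 0.16 that did not pass (limma adjusted p = 0.422).

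The neuronal transcription factor gene onecut, of the cut homeodomain family, had 1.99 and 2.61 FPKM in mutant whole flies and 4.47 and 4.30 FPKM in wildtype whole flies, and the groups did not overlap. It fell by 0.71 on the log2 scale, with an SE of 0.16 and a limma adjusted p of 0.0197, and the adjusted p was 0.0663 without mutant 1, 0.0805 without wildtype 1 and 0.0569 without wildtype 2. Neuron markers had lower values in mutant whole flies too, 2 of 14 positive with a median of -0.19 and sums of 112.8 and 135.99 FPKM in mutants against 152.58 and 126.57 FPKM in wildtypes, and their part in the fall was not tested. In muscle onecut read 4.18 and 6.22 FPKM in mutants and 4.19 and 4.60 FPKM in wildtypes, with overlapping groups. The repressor gene fuss, a Ski and Sno family member expressed in neurons, was called on few reads, 91 and 80 in mutants against 29 and 20 in wildtypes. That gave 1.18 and 1.09 FPKM in mutants and 0.395 and 0.257 FPKM in wildtypes, a difference of 0.69 ± 0.19 with a limma adjusted p of 0.0415. Only the mutants brought it past the filter, so this call is given as a description. The call ended with a pseudocount of 0.1 (adjusted p = 0.0530), without wildtype 1 (0.14) and without wildtype 2 (0.218), and without either mutant the gene no longer reached the filter.

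ATPsynbeta and CG1674 are highly expressed in muscle, and both rose in whole flies. ATPsynbeta, whose levels are given above, had both mutants well above both wildtypes and a difference of 0.51 ± 0.13 with a limma adjusted p of 0.031. CG1674 had 30.3 and 31.0 FPKM in mutants and 23.1 and 20.6 FPKM in wildtypes, a rise of 0.47 ± 0.11 with a limma adjusted p of 0.0216. Muscle markers were higher in the same libraries, 11 of 12 called, with a median of 1.11 and summed levels of 7183.1 and 6563.5 FPKM in mutants against 3348.6 and 2858.6 FPKM in wildtypes, and their part in these rises was not tested. The call of ATPsynbeta ended with quantile scaling (adjusted p = 0.0679), without wildtype 1 (0.0875) and without wildtype 2 (0.235), and that of CG1674 without wildtype 1 (0.0568) and without wildtype 2 (0.176). CG33521, the other gene at 100 FPKM or more in muscle, had a whole-fly difference of 0.42 ± 0.19 that did not pass (limma adjusted p = 0.148), with mutant 1 and wildtype 1 nearly equal, and passed without wildtype 1 (adjusted p = 0.0445).

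**Figure D4:**
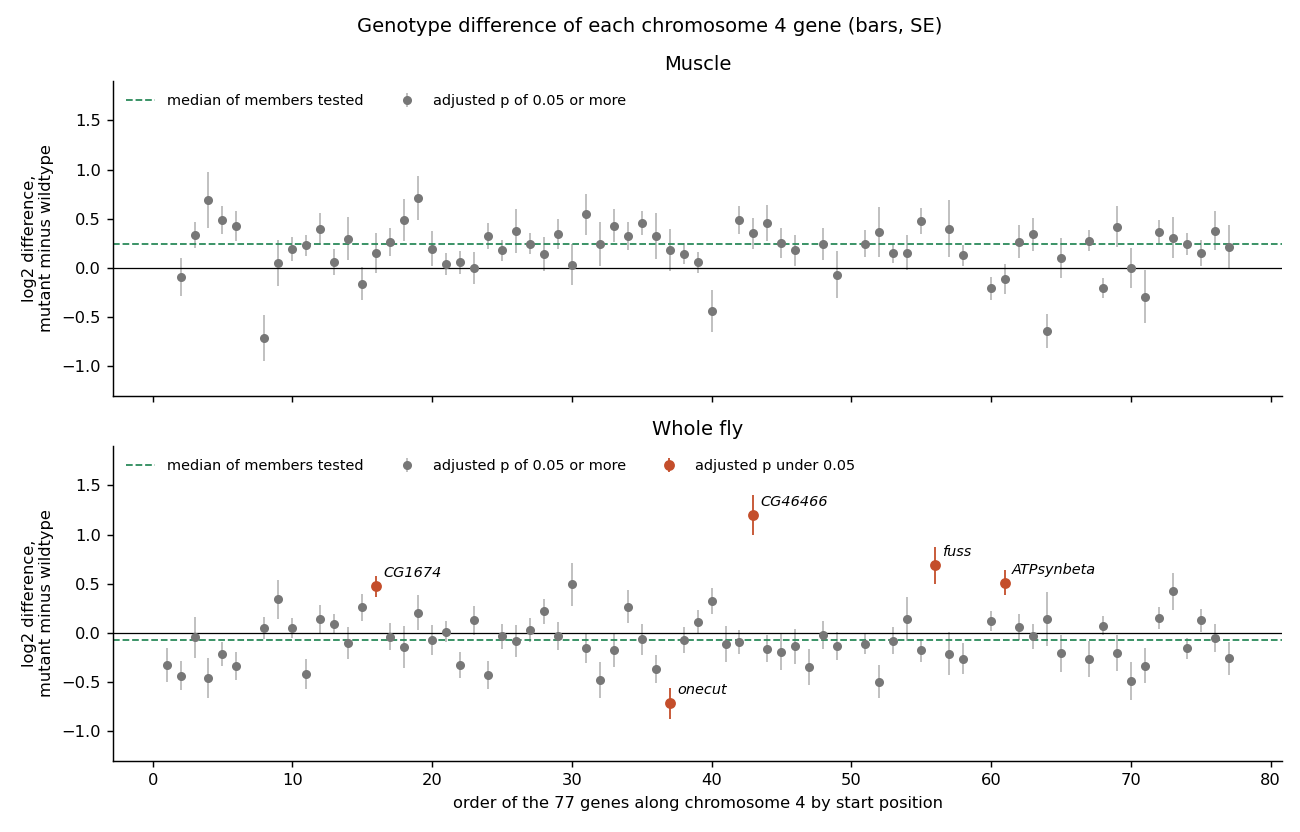
Genotype difference of each tested chromosome 4 gene as log2(FPKM + 1), mutant minus wildtype, with its standard error, in the order of the genes along the chromosome, for muscle above and whole flies below. The dashed line is the median, 0.24 in muscle and -0.07 in whole flies, and the 5 labelled red points are the genes with a limma adjusted p under 0.05.

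Several genes with roles in neurons and signalling had negative values in whole flies that did not pass. PMCA read 46.4 and 57.1 FPKM in mutants and 76.9 and 63.3 FPKM in wildtypes, a difference of -0.43 ± 0.14 (limma adjusted p = 0.0717). PlexB had 3.51 and 4.09 FPKM in mutants and 5.88 and 5.10 FPKM in wildtypes (-0.44 ± 0.15, limma adjusted p = 0.0767), and unc-13 had 3.91 and 5.45 FPKM in mutants and 7.36 and 6.53 FPKM in wildtypes (-0.50 ± 0.17, limma adjusted p = 0.0784). All 3 were lower in both mutants than in both wildtypes. The zinc finger homeobox gene zfh2 stood at 0.926 and 1.35 FPKM in mutants and 2.11 and 1.82 FPKM in wildtypes (-0.48 ± 0.18, limma adjusted p = 0.109), CG32017 at 3.76 and 4.72 FPKM in mutants and 7.62 and 5.23 FPKM in wildtypes, and pan at 2.81 and 4.42 FPKM in mutants and 5.90 and 4.67 FPKM in wildtypes. Whether these genes passed depends on the libraries and the fit. PMCA passed without mutant 2 (adjusted p = 0.0191), with the gene length trend removed (0.0498) and with limma-voom on recovered reads (0.0381). The limma-voom fit also called unc-13 (0.0171), PlexB (0.0196) and zfh2 (0.0109), all lower. Without mutant 2 unc-13 (0.0188) and pan (0.0289) passed, and CG32017 did without wildtype 2 (0.0352). In each of these 6 genes mutant 1 was the lowest library and wildtype 1 the highest.

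By role, the whole-fly medians lay between -0.14 and 0.09. Transcription and chromatin genes had 5 of 15 positive and a median of -0.05, signalling genes 3 of 14 and -0.14, and synapse genes 3 of 10 and -0.09. RNA control, translation and repair genes had 2 of 7 positive and a median of -0.09, and metabolism, transport and cytoskeleton genes 4 of 9 and -0.04. The genes on no role list had 10 of 18 positive and a median of 0.09. Among abundant members Rad23 was level at 56.4 and 61.1 FPKM in mutants and 61.5 and 55.0 FPKM in wildtypes, eIF4G1 overlapped at 56.4 and 69.7 FPKM in mutants and 72.2 and 60.9 FPKM in wildtypes, and Arf102F had 76.0 and 73.5 FPKM in mutants and 72.0 and 70.0 FPKM in wildtypes. The giant gene CG33978 read 2.06 and 2.95 FPKM in mutants and 2.02 and 1.499 FPKM in wildtypes, a difference of 0.34 ± 0.20 that did not pass (limma adjusted p = 0.249).

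Chromosome 4 genes also moved together between repeats of 1 genotype. In whole flies repeat 2 was higher than repeat 1 for 65 of 73 genes among the mutants (89%) but for only 3 of 73 among the wildtypes (4.11%). Over all entries the shares were 48.1% in mutants and 49.8% in wildtypes. Other coding genes of at least 4000 bases showed 76.8% in mutants and 34.3% in wildtypes. In muscle repeat 2 was higher for 60 of 69 genes among mutants (87%) and 52 of 69 among wildtypes (75.4%), against 53.9% and 50.9% of all entries and 74.2% and 71.9% of the other long genes. The whole-fly medians, set against the wildtype mean, were -0.17 in mutant 1, 0.03 in mutant 2, 0.10 in wildtype 1 and -0.10 in wildtype 2, while those of all entries were 0.0234 and 0.0154 in the mutants and under 0.001 in size in the wildtypes. Genes of chromosome 4 under 4000 bases had medians of -0.04, 0.06, 0.07 and -0.07 in the same order, and longer ones -0.23, 0.03, 0.12 and -0.12. The median of wildtype 2 minus wildtype 1, -0.20, was thus larger in size than the median difference between genotypes in whole flies.

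**Figure D5:**
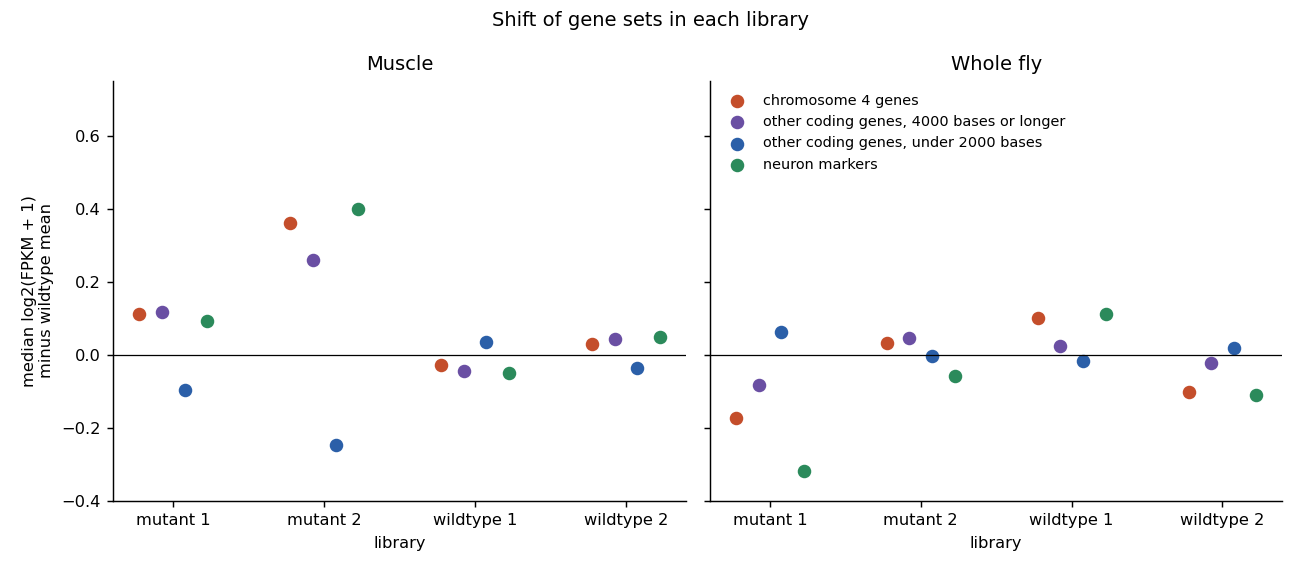
Shift of gene sets in each library, as the median log2(FPKM + 1) minus the mean of the 2 wildtype libraries, for chromosome 4 genes, other coding genes of at least 4000 bases, other coding genes under 2000 bases and neuron markers. In muscle chromosome 4 genes stand at 0.11 in mutant 1 and 0.36 in mutant 2, and in whole flies at -0.17 in mutant 1, 0.03 in mutant 2, 0.10 in wildtype 1 and -0.10 in wildtype 2.

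Spread within groups followed this pattern. The median SD between repeats was 15.9% of the mean level in mutant muscle and 4.61% in wildtype muscle, and 13.1% in mutant and 12.3% in wildtype whole flies. Split into 4 blocks by gene order, the muscle medians were 0.25, 0.24, 0.24 and 0.21, and 15 of 18, 18 of 19, 13 of 15 and 11 of 17 genes were positive. The whole-fly medians were -0.05, -0.06, -0.12 and -0.04, and 8 of 19, 7 of 19, 4 of 18 and 8 of 17 genes were positive.

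Whether the genotype difference itself differed between tissues was tested with an interaction term over all 8 libraries. Of the 69 chromosome 4 genes tested, limma called 0, where 5.83% of 9444 genes were called. An unadjusted p under 0.05 was reached by 19 (27.5%), against 27.2% of all genes, and 53 (76.8%) had a larger difference in muscle than in whole flies, against 47.6%. The smallest p belonged to 4E-T, with an interaction of 0.65 ± 0.17 (log2, SE) and a limma adjusted p of 0.0856, from 0.47 in muscle and -0.18 in whole flies. PMCA followed at 0.76 ± 0.22 (limma adjusted p = 0.0961), then Ank at 0.70 ± 0.20 (0.0984), ATPsynbeta at -0.63 ± 0.18 (0.102) and anne at 0.76 ± 0.23 (0.106). Each mutant was above both wildtypes in muscle and below them in whole flies for 9 genes (13%), against 7.02% of all 9444 genes. The opposite held for 3, namely Gat, CG11076 and Arf102F (4.35%), against 12.1%, and both tissues had both mutants above for 4 (5.8%), against 7.22%. The count of 0 calls rests on the libraries used and did not hold without muscle mutant 1, where 1 mutant muscle library remained. The share of all genes called was then also larger than in the main fit. A larger difference in muscle was seen for 54 of 68 genes without muscle mutant 1 and for 47 of 68 without muscle mutant 2.

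The share of all reads that fell on the 77 genes overlapped between the genotypes in both tissues. It was 1.54% and 1.30% in mutant muscle and 1.46% and 1.49% in wildtype muscle, an exact two-sided permutation test over libraries giving p = 1, where 2 against 2 libraries cannot go below 0.333. In whole flies it was 1.0% and 1.26% in mutants and 1.17% and 1.03% in wildtypes, again with an exact permutation p of 1. As a share of nuclear protein-coding reads the muscle values were 1.86% and 1.76% in mutants and 1.74% and 1.75% in wildtypes, both mutants higher, with an exact permutation p of 0.333. Without ATPsynbeta and apolpp the muscle share was 0.655% and 0.658% in mutants and 0.528% and 0.573% in wildtypes, both mutants higher, at the smallest p that the exact test allows. In whole flies the remaining 75 genes took 0.430% and 0.541% in mutants and 0.602% and 0.539% in wildtypes, with overlap.

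Genes outside chromosome 4 that are known to control it did not pass. Of 11 such genes, chosen for their roles in chromosome 4 or HP1 chromatin, 9 were tested in muscle and 11 in whole flies, and limma called 0 in each tissue, where 0% and 20.8% of all entries were called, with medians of 0.02 in muscle and 0.15 in whole flies. An unadjusted p under 0.05 was reached by 2 of them in each tissue, against 14% and 36.4% of all entries. Pof itself varied between repeats in muscle, at 29.4 and 5.35 FPKM in mutants and 10.6 and 6.42 FPKM in wildtypes. The summed testis and male markers ranked the muscle libraries in the same order, and their part in these values was not tested. In whole flies Pof read 33.1 and 31.6 FPKM in mutants and 36.0 and 42.4 FPKM in wildtypes, a difference of -0.26 ± 0.11 (limma adjusted p = 0.145). The gene that encodes HP1 had 18.6 and 17.7 FPKM in mutant muscle and 23.3 and 22.9 FPKM in wildtype muscle (-0.33 ± 0.10, limma adjusted p = 0.326), and 77.04 and 69.04 FPKM in mutant whole flies against 57.8 and 61.8 FPKM in wildtype whole flies (0.28 ± 0.10, limma adjusted p = 0.0984). The groups did not overlap in either tissue.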

How the data were processed

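RNA was sequenced from mutant and wildtype muscle and whole flies. The authors deposited 2 tables of FPKM, muscle with FlyBase and whole flies with NCBI identifiers. Nothing on aligner, counting tool or strand setting was given in the sources used here. A mouse build is named in the submitters' processing notes, but identifiers and coordinates are those of release 6 of the fly genome. Whole-fly columns name genotype and repeat but no tissue. They belong to whole flies since all muscle libraries are in the other table. Multiplied by gene length, 100% of FPKM values above 0 were whole multiples of 1 step per library, within 0.1 reads, which gave the read numbers. Other per-gene values in the deposited tables, such as gene length, are the authors'.

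Differences are mutant minus wildtype on log2(FPKM + 1), tested per tissue with limma 3.58.1 in R 4.3.3 (mean-variance trend) over all entries that had 1 FPKM or more in 2 or more libraries, with Benjamini-Hochberg adjustment at 0.05. A count test had been foreseen for raw counts only. Limma-voom with trimmed-mean scaling, planned as an alternative, was tried and left out, since the tables hold FPKM and not counts. It called more chromosome 4 genes in whole flies than the fit on FPKM, most of them lower. Limma-voom on the recovered reads with the library totals behind the deposited FPKM, which adds no scaling of its own, was added in its place after the data were seen. The interaction used genes passing in both tissues. Alternatives were other pseudocounts, filters and scalings, a replicate block, length-trend removal, a shared spread and leaving out each library. Structure came from the tables and Ensembl release 115.

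The members and lists were chosen with earlier results of these data known. Named genes were those called, per tissue the 6 with the largest difference in each direction among genes with separated groups and the 6 with the highest level, the 5 with the smallest interaction p, the 2 most abundant of each role and genes without reads. Genes named beyond these were chosen after their values were seen. The name of 1 gene matched by synonym is not reported here. Deviations of same-numbered libraries correlated across genes at 0.39 in muscle and -0.15 in whole flies, over 2 pairs each, and the numbers were not taken to pair the libraries.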

Additional observations from a re-analysis of the deposited data

How the results depend on the processing

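In muscle 0 chromosome 4 genes were called under every alternative that kept all libraries. With the spread shared by all 8 libraries 2.66% of all genes were called, and 0.0333% or less of all entries under the others. The median difference of 0.24 ranged from 0.11 to 0.36 with 1 library left out. With the gene length trend removed it was 0.10, and the cause was not tested. In whole flies the count of 5 was 3 with a minimum FPKM of 5 and 3 with no filter. With the spread shared by all 8 libraries it was 1. The shares of all entries called were 24.1%, 11.4% and 5.76% in that order, against 20.8% in the main fit. The count also moved with 1 library left out, and the cause was not tested. The median of -0.07 ranged from -0.18 to 0.06 with 1 library left out. With a replicate block the whole-fly count was 11 (6 higher and 5 lower, with 24.6% of all entries called), with PMCA, unc-13, CG32017 and CG33521 among the calls. The block changed no other count, with 0 in muscle and 0 in the interaction, where 0% and 0.169% of all genes were called. A crossed pairing of the whole-fly numbers, added after the data were seen, called 12 (5 higher, 7 lower; 26.5% of all entries). Without the genes that overlap another coding gene the count was 4, and it was 5 with only the genes of the same name in both tables, both added later. Limma-voom on recovered reads, added later, called 10 in whole flies, 0 in muscle and 0 in the interaction, against 24.6%, 0% and 5.54% of all entries. The planned version with trimmed-mean scaling is not reported in values. The interaction count of 0 ranged from 0 to 13 with 1 library left out. The difference in read share in muscle, mutant minus wildtype, was -0.0563 percentage points, 0.0621 as a share of nuclear protein-coding reads and 0.106 without ATPsynbeta and apolpp, and from -0.172 to 0.0598 with 1 library left out. In whole flies it was 0.0326, from -0.0995 to 0.165 with 1 library left out.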
